A study of Homo sapiens with 18 samples.

Results

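CMTM3 encodes a membrane protein of the CMTM family, and it was followed here in all 18 arrays of a study of antisense oligonucleotides (ASOs) in breast cancer lines. It is 1 gene, found by its platform symbol, of 14884 symbols named on the array, and it has 1 feature (transcript cluster 16819856). It was chosen by its log2 values and limma call, because it was higher after the anti-AL078604.2 ASO in both lines that received it. Its values in those lines are therefore a description and carry no test, while its comparison in SKBR3 did not enter the choice.

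The study used Affymetrix Human Gene 2.0 ST arrays, which read RNA per transcript cluster. The triple-negative lines, which lack the hormone receptors and HER2 amplification, were MDA-MB-231 and MDA-MB-468, and each received a control ASO or anti-AL078604.2 ASO1. SKBR3, a HER2-positive line, received a control or an anti-LINC01269 ASO. Both targets are long non-coding RNAs, and the design asks how their loss alters gene expression. All ASOs were GapmeRs, whose DNA core directs RNase H to the paired RNA, at 15 nM for 48 h with TransIT-BrCa, so the controls also carried an oligonucleotide and the transfection reagent. Each of the 6 groups has 3 arrays. No label says whether replicates came from separate cultures, so the spread between arrays may be technical. Neither lncRNA has a named feature, so the knockdown itself was not analysed here.

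The CMTM family (chemokine-like factor and MARVEL transmembrane domain-containing proteins) comprises CKLF and CMTM1 to CMTM8. The MARVEL domain is a bundle of membrane-spanning helices found in proteins of membrane traffic and cell junctions. CMTM3 is known as a broadly expressed gene that is silenced by promoter methylation in several carcinomas, and as a promoter of Rab5-dependent early endosome traffic and EGFR degradation in gastric cancer cells. CMTM7 and CMTM8 have also been tied to EGFR internalization, and CMTM6, with CMTM4, keeps the immune checkpoint ligand PD-L1 at the cell surface.

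CMTM3 lies at chr16:66603996-66613892 on the plus strand (GRCh38.p14, RefSeq). It sits within the span of CMTM4 (chr16:66598178-66696743), whose promoter is on the minus strand. CMTM2 starts 24533 bases and CMTM1 37557 bases to its left, so 4 family members with a feature lie in 1 cluster. RefSeq gives 3 promoter windows of 300 bases for CMTM3, of which 2 overlap almost wholly. The 2 windows that differ are shown because the array feature does not tell which start the measured RNA used, and capitals mark the Sp/KLF box GGGCGG, read on both strands.

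CMTM3 proximal promoter, chr16:66604481-66604780: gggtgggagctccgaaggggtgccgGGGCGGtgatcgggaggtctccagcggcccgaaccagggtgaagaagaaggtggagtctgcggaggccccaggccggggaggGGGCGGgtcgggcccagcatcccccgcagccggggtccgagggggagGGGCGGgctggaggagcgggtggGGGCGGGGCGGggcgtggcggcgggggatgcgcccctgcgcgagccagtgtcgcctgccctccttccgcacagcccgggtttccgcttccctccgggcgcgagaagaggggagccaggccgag

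CMTM3 upstream promoter, chr16:66603746-66604045: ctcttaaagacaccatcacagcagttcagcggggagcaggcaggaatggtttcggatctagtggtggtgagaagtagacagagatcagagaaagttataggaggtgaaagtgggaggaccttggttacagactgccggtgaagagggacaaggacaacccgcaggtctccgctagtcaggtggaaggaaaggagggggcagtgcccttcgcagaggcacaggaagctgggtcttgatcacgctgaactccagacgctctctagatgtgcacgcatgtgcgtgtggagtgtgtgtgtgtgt

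The proximal window has 31 CpG dinucleotides, more than 79.3% of 34796 distinct RefSeq promoter windows, and 77.0% G and C. Its 5 Sp/KLF boxes include a pair that shares 1 G. At least 1 such box stands in 44.9% of all windows. The upstream window has 10 CpG dinucleotides, 54.7% G and C and 0 boxes. Neither window holds the letters of an AP-1 site (TGANTCA, in 7.72% of all windows), an EGR site (GCGNGGGCG, 9.43%), an ETS core (CCGGAA, 17.2%), a cyclic AMP response element (TGACGTCA, 1.84%) or an E-box (CACGTG, 7.20%), all read on both strands. These are letter matches only, and methylation was not measured. Other family promoters range from 2 CpG dinucleotides at CMTM5 to 45 at CMTM4.

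The deposited values are on a log2 scale, and array medians were 4.56 to 4.63 in the SKBR3 arrays, 5.41 to 5.43 in the MDA-MB-231 arrays and 5.21 to 5.24 in the MDA-MB-468 arrays. Levels are therefore compared within a line, or between lines as a percentile of all 53617 features of an array or after quantile normalization of all arrays. Replicate arrays correlated at 0.985 to 0.992 and none were identical. The line markers did not settle the labels, and several did not separate the lines as labelled. The epithelial gene EPCAM stood near the 99th percentile in the controls of every line (98.9, 99.2 and 99.3 in the order SKBR3, MDA-MB-231, MDA-MB-468), and the mesenchymal gene VIM at 76.1, 76.6 and 82.1. The basal keratin KRT5 stood highest in those labelled MDA-MB-468 (85.8), but the basal keratin KRT14 in those labelled MDA-MB-231 (89.2, against 79.3 in MDA-MB-468 and 71.9 in SKBR3). The mesenchymal-like marker AXL stood at 80.7 in SKBR3, 83.2 in MDA-MB-231 and 60.1 in MDA-MB-468. The adaptor gene GRB7, taken as a HER2-positive luminal marker, stood at 79.1, 81.3 and 78.8 in that order, so it was not highest in SKBR3. Of the other luminal markers, KRT18 stood at 98.7 in SKBR3 and 98.5 in MDA-MB-231, and SPDEF at 97.26 and 97.01. KRT8 was highest in SKBR3 (77.57, against 73.99 and 75.52). The epithelial genes CLDN7 (96.3, 96.9 and 97.3) and ESRP1 (98.08, 98.08 and 98.01) stood high in every line, MDA-MB-231 included. No feature is named CDH1 or ERBB2. Of the leukocyte, fibroblast and endothelial markers, 3 of 10 have one (CD14, LYZ and PECAM1), and all stood below the median of all features in each control group. Line names below are those of the labels, and the identity of the lines was not tested.

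In MDA-MB-231, CMTM3 read 6.03, 5.81 and 6.01 log2 in the control arrays and 6.64, 6.52 and 6.68 in the anti-AL078604.2 arrays. Every anti-AL078604.2 array lay above every control array, and the gap between the nearest arrays was 0.49. Such a separation in the upward direction was seen for 9.28% of the 29855 features tested, and 0.0971% of features were higher with a limma adjusted p under 0.05. The mean went from 5.95 ± 0.12 to 6.61 ± 0.08 (SD, n = 3), a difference of 0.66 ± 0.10 (SE) or 1.58-fold. The median feature differed by 0.01. Rises at least this large were seen for 161 of 29855 features, which puts the CMTM3 difference at percentile 99.5. In such bulk RNA, a higher share of cells with the transcript and more RNA per cell cannot be told apart.

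In MDA-MB-468, CMTM3 read 5.25, 5.21 and 5.34 in the control arrays and 6.14, 6.02 and 5.93 in the anti-AL078604.2 arrays. The groups were again apart, with 0.59 between the nearest arrays, as were 8.41% of features in this direction, and 0.0067% of features were higher with an adjusted p under 0.05. The mean went from 5.27 ± 0.07 to 6.03 ± 0.11 (SD, n = 3), a difference of 0.76 ± 0.10 (SE) or 1.70-fold. Rises at least as large were seen for 70 of 29855 features, percentile 99.8. Leaving out any 1 array kept the difference between 0.59 and 0.71 in MDA-MB-231 and between 0.71 and 0.82 in MDA-MB-468.

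In SKBR3, CMTM3 did not pass the test after the anti-LINC01269 ASO. It read 5.43, 5.67 and 5.35 in the control arrays and 5.53, 5.40 and 5.34 with the ASO. The groups overlapped (7.28% of features were apart upward and 4.26% downward), the highest array was a control, and 2 of the 3 ASO arrays lay below the control mean. Means were 5.48 ± 0.17 and 5.42 ± 0.10 (SD, n = 3). The difference was -0.06 ± 0.10 log2 (SE), with a 95% interval of -0.28 to 0.16, or 0.823-fold to 1.12-fold (limma adjusted p = 0.908; exact two-sided permutation p = 0.6, where 3 against 3 arrays cannot go below 0.1). The interval lies below the differences of 0.66 and 0.76 described for the other lines, but that gap was not tested, and ASO and line both differ between these comparisons and cannot be told apart. Without control replicate 2, the highest array, the sign turned (0.03, adjusted p = 0.964).

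**Figure D1:**
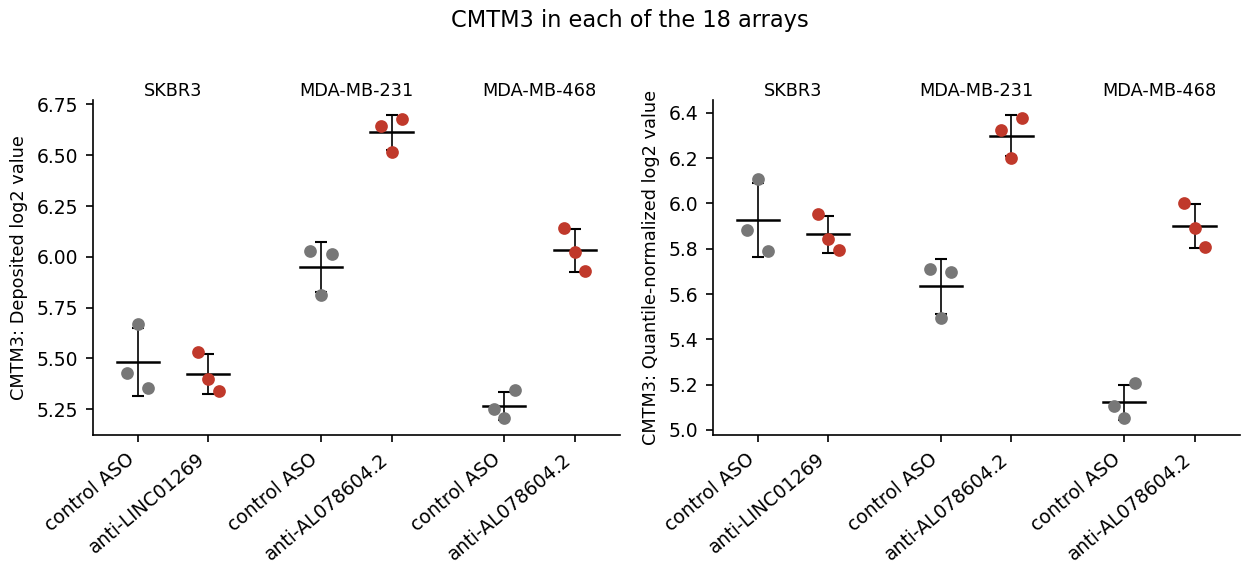
CMTM3 in each of the 18 arrays, as the deposited log2 value (left) and after quantile normalization of all arrays together (right), by line and ASO. Points are arrays, horizontal lines group means and bars SD (n = 3). In MDA-MB-231 and MDA-MB-468 all anti-AL078604.2 arrays lie above all control arrays, and in SKBR3 the groups overlap.

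Across the 6 groups, CMTM3 moved through the middle of the array's range. Among control arrays its mean percentile was 65.2 ± 2.5 (SD, n = 3) in SKBR3, 60.4 ± 2.1 in MDA-MB-231 and 50.9 ± 1.5 in MDA-MB-468, the last close to the median of all features. The anti-AL078604.2 arrays stood at 70.6 ± 1.2 in MDA-MB-231 and 64.8 ± 1.5 in MDA-MB-468, and the anti-LINC01269 arrays at 64.2 ± 1.3. With all arrays quantile-normalized, the order from the top was anti-AL078604.2 MDA-MB-231 (6.30 ± 0.09 log2), control SKBR3 (5.93 ± 0.16), anti-AL078604.2 MDA-MB-468 (5.90 ± 0.10), anti-LINC01269 SKBR3 (5.86 ± 0.08), control MDA-MB-231 (5.63 ± 0.12) and control MDA-MB-468 (5.12 ± 0.08). The 2 SKBR3 groups and the anti-AL078604.2 MDA-MB-468 group overlapped one another and differed by less than their spread, whereas the arrays of the top group and of the lowest group did not overlap with their neighbours. On this scale the anti-AL078604.2 arrays of MDA-MB-468, the line with the lowest control level, lay above the MDA-MB-231 control arrays and within the range of the SKBR3 arrays.

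CMTM3 varied little between replicates. Its SD pooled over the 6 groups was 0.11 log2 (12 degrees of freedom), against a median of 0.15 over all tested features and of 0.17 over the 4319 features whose mean lay within 0.25 log2 of its own. A small spread also favours a gene being called, so this value is part of how the gene was chosen.

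As a description that uses the values by which CMTM3 was chosen, 26 tested features, CMTM3 included, had a difference of at least 0.66 in both anti-AL078604.2 lines, and 9 of them are named. The other 8 are TFPI2, an inhibitor of serine proteases, the oxidized LDL receptor OLR1, the phospholipid-binding protein ANXA1, the NKG2D ligand ULBP1, the tetraspanin TSPAN2, endothelin precursor EDN1, carboxypeptidase CPA4 and sciellin (SCEL), a protein of the cornified envelope. Among the unnamed, features 17122136 and 17122138 had identical differences (2.65 in MDA-MB-231, 1.63 in MDA-MB-468 and 0.73 in SKBR3), so the 26 are not all distinct measurements. The cut of 0.66 is the CMTM3 difference in MDA-MB-231 itself, so the place of CMTM3 at the edge of this set is given by construction. In SKBR3, CMTM3 (-0.06) and CPA4 (-0.04) were below 0, and the other 7 ran from 0.10 for OLR1 to 0.57 for ANXA1. Arrays were apart in the upward direction in both lines for 426 features, 1.43% of those tested.

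**Figure D2:**
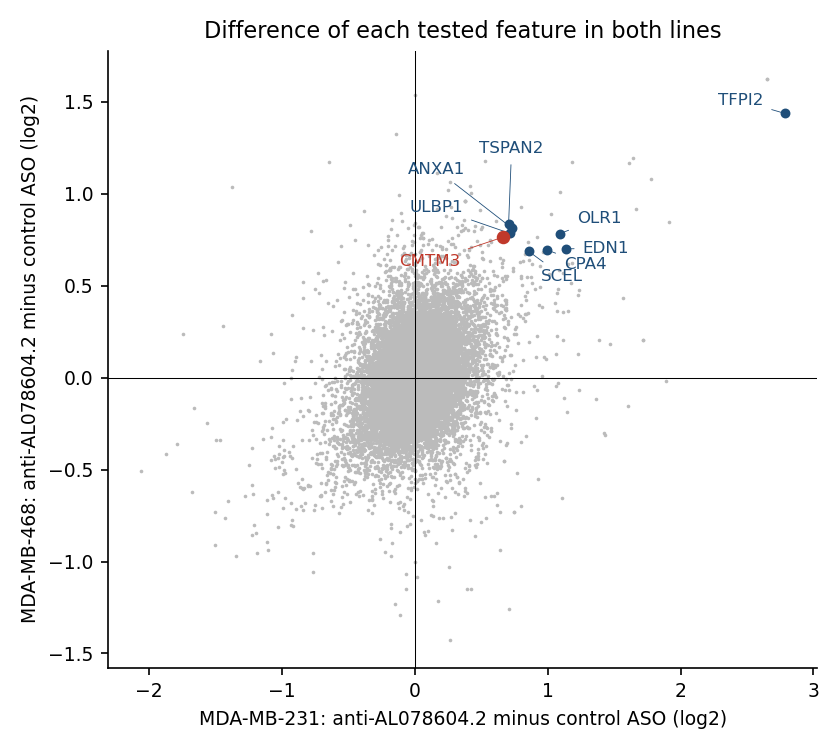
Difference between anti-AL078604.2 and control ASO in MDA-MB-231 (horizontal, log2) and MDA-MB-468 (vertical, log2) for each of the 29855 tested features. Named features with a difference of at least 0.66 in both lines are labelled, with CMTM3 in red at 0.66 and 0.76. The 2 lines have separate control arrays.

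None of the other 7 family members with a feature passed the test in any line, while 0.171% of features passed in MDA-MB-231, 0.0067% in MDA-MB-468 and 0.0% in SKBR3. At an unadjusted p under 0.05 limma gave 2 lower in MDA-MB-231, 1 higher and 1 lower in MDA-MB-468, and 1 higher in SKBR3. Over all features, that threshold was met by 4.90% upward and 4.45% downward in MDA-MB-231, 5.25% and 5.24% in MDA-MB-468, and 5.37% and 3.79% in SKBR3. The median difference of the 7 members was -0.17 log2 in MDA-MB-231, -0.14 in MDA-MB-468 and 0.03 in SKBR3, where the median of all features was 0.01, -0.0035 and 0.01 in the order MDA-MB-231, MDA-MB-468, SKBR3. After the anti-AL078604.2 ASO, 6 of 7 were below 0 in MDA-MB-231 and 4 of 7 in MDA-MB-468, where CMTM1, CMTM2 and CMTM5 were above it. Arrays were apart downward for 3 of the 7 in MDA-MB-231 (7.87% of all features) and for 1 in MDA-MB-468 (8.5%), where 1 was apart upward (8.41%). In SKBR3, 1 was apart upward (7.28%) and 0 downward (4.26%). The signs in both triple-negative lines held under quantile normalization. CKLF has no named feature and was not analysed here.

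CMTM4, whose span holds CMTM3, gave the clearest contrast with it in MDA-MB-468. It read 9.16, 9.16 and 9.16 in the control arrays and 8.94, 8.92 and 8.96 with the anti-AL078604.2 ASO (-0.22 ± 0.07, SE, limma adjusted p = 0.297). In MDA-MB-231 its arrays overlapped, with 9.21, 9.13 and 9.34 in the controls and 9.25, 9.14 and 9.05 with the ASO (-0.08 ± 0.07, adjusted p = 0.795). In SKBR3 it differed by 0.03 ± 0.07.

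CMTM6, the PD-L1 stabilizer, differed by -0.19 ± 0.07 in MDA-MB-231 (limma adjusted p = 0.401), by -0.14 ± 0.07 in MDA-MB-468 and by 0.16 ± 0.07 in SKBR3. In MDA-MB-231 the control arrays read 8.80, 8.95 and 8.86 and the ASO arrays 8.79, 8.64 and 8.61, apart by a narrow margin. In SKBR3 the control arrays read 8.11, 8.30 and 8.17 and the ASO arrays 8.35, 8.41 and 8.33. These were also narrowly apart, but upward (limma adjusted p = 0.531). CMTM7 and CMTM8, which lie in the same region of chromosome 3, had differences below 0 in both triple-negative lines. CMTM7 differed by -0.19 ± 0.10 and -0.17 ± 0.10 (limma adjusted p = 0.611 and 0.600), and CMTM8 by -0.25 ± 0.09 and -0.19 ± 0.09 (0.358 and 0.488).

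The other members at the CMTM3 cluster, CMTM1 and CMTM2, are known mainly from testis. CMTM1 read 5.94, 5.90 and 5.96 in the MDA-MB-468 controls and 6.17, 6.13 and 6.18 with the ASO (0.23 ± 0.09, limma adjusted p = 0.404), and overlapped in MDA-MB-231 (0.10 ± 0.09) and SKBR3 (0.00 ± 0.09). CMTM2 differed by -0.03 ± 0.13, 0.14 ± 0.13 and -0.07 ± 0.13 in the order MDA-MB-231, MDA-MB-468, SKBR3. CMTM5, on chromosome 14, differed by -0.17 ± 0.15, 0.05 ± 0.15 and 0.13 ± 0.15, within about 1 SE of 0. For each of the 7 the difference between both triple-negative lines also failed the test (limma adjusted p 0.998 to 0.999).

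**Figure D3:**
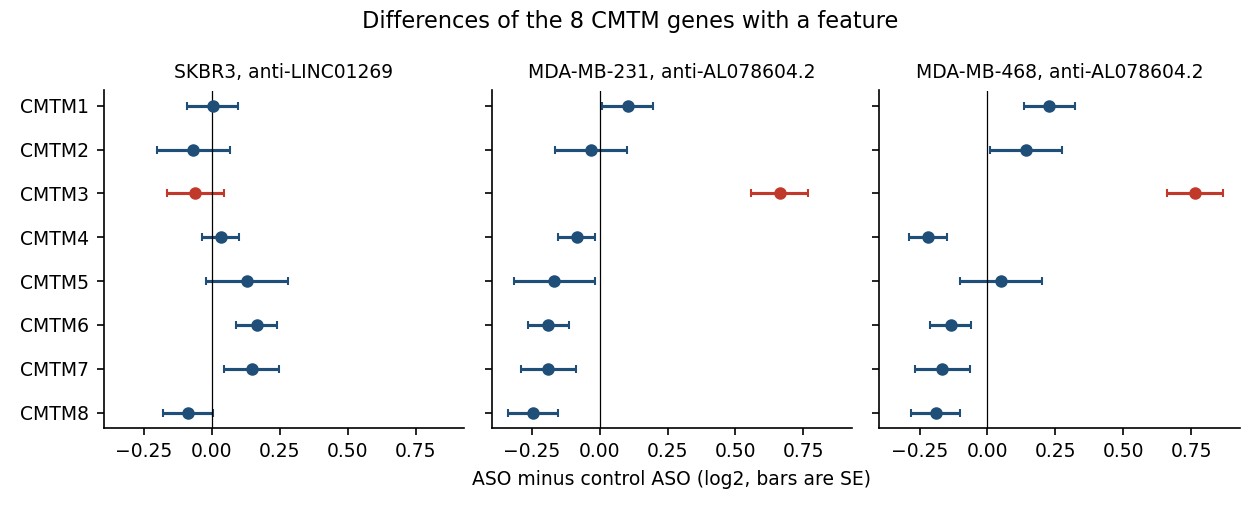
Difference between each ASO and the control ASO of its line (log2) for the 8 CMTM genes with a feature, with SE bars. CMTM3 (red) stands at 0.66 and 0.76 in the anti-AL078604.2 lines, where the other 7 lie between -0.25 and 0.23.

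Around CMTM3, 35 RefSeq genes have their left end (the lower coordinate, whichever the strand) within 500 kb of that of CMTM3. Of these, 10 have a named feature and 6, CMTM3 among them, were tested. None of the other 5 passed in any line; at an unadjusted p under 0.05 limma gave 2 higher and 1 lower in MDA-MB-468 (5.25% and 5.24% of all features) and 0 in the other lines. In MDA-MB-468 the arrays of 2 were apart upward and of 1 downward (8.41% and 8.5% of all features). NAE1, a subunit of the NEDD8-activating enzyme, has its left end 198882 bases away. It read 9.98, 9.96 and 9.91 in the MDA-MB-468 controls and 10.21, 10.28 and 10.19 with the anti-AL078604.2 ASO (0.27 ± 0.08, limma adjusted p = 0.248). In MDA-MB-231 its difference was 0.15 ± 0.08 with overlapping arrays. The non-coding gene LINC00920, with its left end 195472 bases away on the other side, differed by 0.26 ± 0.13 in MDA-MB-231 and 0.20 ± 0.13 in MDA-MB-468, with overlapping arrays in both (adjusted p = 0.583 and 0.644). The 5 genes had a median difference of 0.10 in MDA-MB-231, 0.20 in MDA-MB-468 and 0.01 in SKBR3. Over all features the median was 0.01, -0.0035 and 0.01 in that order. CMTM1, CMTM2 and CMTM4 are among the 5. In MDA-MB-468, CMTM1 (higher) and CMTM4 (lower) were therefore counted with the family as well.

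**Figure D4:**
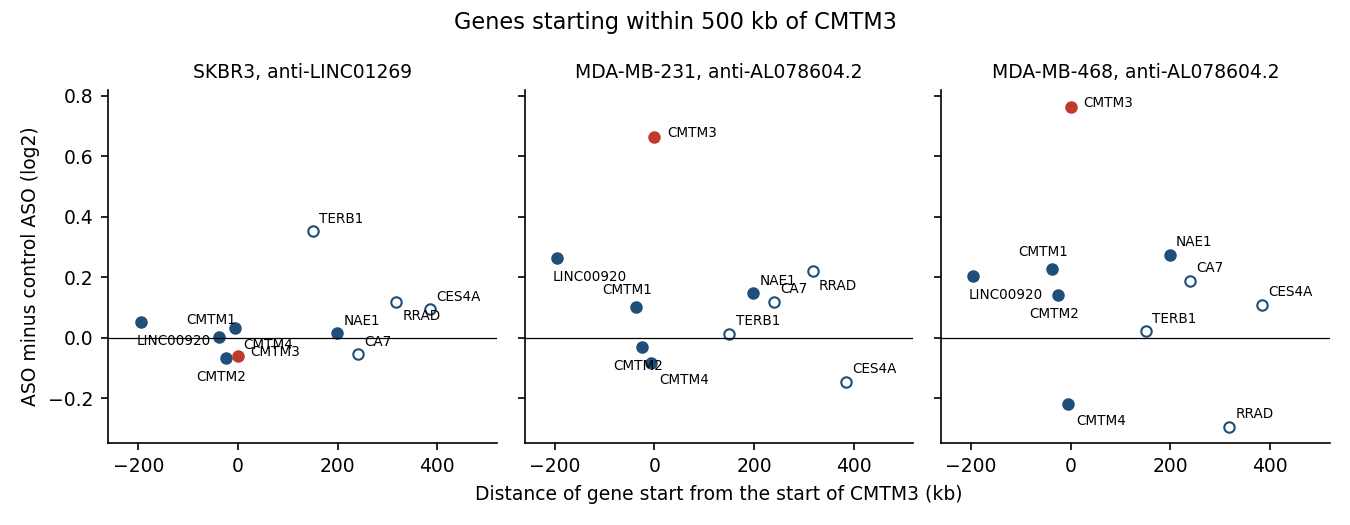
Difference between each ASO and the control ASO of its line (log2) against the distance of a gene's left end from that of CMTM3 (kb), for the 10 genes within 500 kb with a named feature. The axis label calls the left end the start, but for a gene on the minus strand, such as CMTM4, the promoter lies at the right end. Filled points were tested, and open points lay below the level needed for testing in every group. CMTM3 is red. In the anti-AL078604.2 lines no other tested neighbour exceeds 0.27.

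Of 18 other MARVEL-domain genes, 14 were tested and 0 passed in any line. At an unadjusted p under 0.05 limma gave 1 higher and 1 lower in MDA-MB-231 (4.90% and 4.45% of all features) and 0 in the other lines. MARVELD1 was the highest in MDA-MB-231, at 6.51, 6.39 and 6.54 in the controls and 6.65, 7.09 and 6.83 with the ASO (0.38 ± 0.12, limma adjusted p = 0.270). It differed by 0.13 ± 0.12 in MDA-MB-468 and 0.12 ± 0.12 in SKBR3. The synaptogyrin gene SYNGR1 was the lowest in MDA-MB-231 (-0.32 ± 0.11, adjusted p = 0.316). The tight junction gene OCLN differed by 0.09 ± 0.08 in both triple-negative lines and by 0.16 ± 0.08 in SKBR3 (limma adjusted p = 0.571). The median over the 14 was 0.03, 0.04 and 0.01 in the order MDA-MB-231, MDA-MB-468, SKBR3, close to that of all features.

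Genes of early endosomes and EGFR traffic had 13 tested members of 26. The list was made with earlier results of these data known, so a pass in it is a description. Limma gave 1 lower in MDA-MB-231 (4.45% of all features) and 1 higher in SKBR3 (5.37%) at an unadjusted p under 0.05. In MDA-MB-468 it gave 1 higher and 1 lower (5.25% and 5.24%). Arrays were apart upward for 1 and downward for 2 in MDA-MB-231 (9.28% and 7.87%) and likewise in MDA-MB-468 (8.41% and 8.5%). In SKBR3 they were apart upward for 3 and downward for 0 (7.28% and 4.26%). In MDA-MB-231, 1 passed, EPS15L1, an adaptor of clathrin-mediated endocytosis, which fell. It read 9.66, 9.67 and 9.54 in the controls and 9.33, 8.93 and 8.70 with the anti-AL078604.2 ASO, all ASO arrays lying below the controls (-0.63 ± 0.12, limma adjusted p = 0.0456). The call was lost without any 1 array but anti-AL078604.2 replicate 1 (adjusted p = 0.137 to 0.286; 0.000719 without replicate 1), and 0.0737% of all features passed in this direction. In MDA-MB-468 the arrays of EPS15L1 were also apart, at 9.12, 9.10 and 9.21 against 8.52, 8.58 and 8.85, but it did not pass (-0.49 ± 0.12, adjusted p = 0.194), and in SKBR3 it differed by 0.07 ± 0.12.

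EGFR, whose protein CMTM3 is known to direct to degradation in gastric cancer cells, did not pass in any line at the RNA level measured here. It read 11.17, 11.22 and 11.29 in the MDA-MB-231 controls and 11.33, 11.09 and 10.93 with the ASO, which overlap (-0.11 ± 0.09, limma adjusted p = 0.799). In MDA-MB-468 it differed by -0.10 ± 0.09 (0.758) and in SKBR3 by 0.03 ± 0.09 (0.961), a sign that turned under quantile normalization. RABGEF1, an exchange factor for Rab5, differed by 0.30 ± 0.09 in MDA-MB-468 (limma adjusted p = 0.294) and by 0.08 ± 0.09 in MDA-MB-231, where its arrays overlapped. In SKBR3, after the other ASO, RABGEF1 differed by 0.17 ± 0.09 (adjusted p = 0.618). Its arrays were apart upward in MDA-MB-468 and SKBR3 (8.41% and 7.28% of all features). The RAB5A, RAB5B and RAB5C genes have no named feature. The median over the 13 was 0.04, -0.03 and 0.06 in the order MDA-MB-231, MDA-MB-468, SKBR3.

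Adherens junction genes had 6 tested members of 15 and 0 passed; limma gave 1 higher in MDA-MB-231 (4.90% of all features) and 1 lower in MDA-MB-468 (5.24%) at an unadjusted p under 0.05. All 6 were below 0 in MDA-MB-468 (median -0.13, against -0.0035 over all features), and the arrays of 2 were apart downward (8.5% of all features). The lowest was NECTIN4 (-0.27 ± 0.09, limma adjusted p = 0.330). In MDA-MB-231 the median was -0.03 and plakoglobin (JUP) was highest (0.20 ± 0.09, adjusted p = 0.452). Immune surface genes had 6 tested members of 10 and 0 passed, with 1 higher in each line at an unadjusted p under 0.05, as were 4.90% to 5.37% of all features. These members, none of which passed, were CD47, the "do not eat me" signal, in MDA-MB-468 (0.23 ± 0.07, adjusted p = 0.286), B2M, the light chain of HLA class I, in MDA-MB-231 (0.14 ± 0.06, 0.455), and the poliovirus receptor gene PVR in SKBR3 (0.29 ± 0.13, 0.507). CD274, which encodes PD-L1, differed by 0.06 ± 0.15 in MDA-MB-231, 0.13 ± 0.15 in MDA-MB-468 and 0.00 ± 0.15 in SKBR3.

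The genes whose profile was most like that of CMTM3 were taken by Pearson's r over the 18 arrays, each value less the control mean of its line, among 12002 other named tested features. The highest were PGM2L1, an enzyme of sugar phosphate metabolism (r = 0.926), the zinc finger genes ZNF490 (0.894) and ZNF217 (0.890), SCAND3 (0.891) and KBTBD2, a substrate adaptor of a ubiquitin ligase (0.889). The lowest were WSB2, a SOCS-box protein (-0.918), TRAPPC3, a subunit of a vesicle tethering complex (-0.913), and CDCA7L, a MYC-interacting protein (-0.907). The 6 anti-AL078604.2 arrays set these values, and all arrays of a line share its control mean, so r is a description. PGM2L1 read 8.11, 8.10 and 8.03 in the MDA-MB-231 controls and 8.25, 8.28 and 8.34 with the ASO, and 8.77, 8.64 and 8.75 against 9.13, 9.05 and 9.11 in MDA-MB-468. Its differences (0.21 and 0.38) were smaller than those of CMTM3 in both lines, and in SKBR3 it differed by -0.04.

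With the mean of each group removed, so that only deviations between replicate arrays remain and the contrasts used to choose CMTM3 do not enter, other genes led. The highest were DKKL1 (r = 0.836), ZNF740 (0.829), ASB6 (0.814), the Mediator subunit gene MED26 (0.811) and ZFP82 (0.809), and the lowest WDR20 (-0.857), C19orf33 (-0.828) and MIR1250 (-0.825). None of these 8 was among the 8 named by the first measure, which says little for lists this short from 12002 features. These values are the extremes of all those features and carry no test, so they are a description. Over all named features the 99th percentile of r was 0.621 here and 0.749 with the first measure.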

How the data were processed

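RNA was labelled with the WT PLUS kit, per the labels' protocols. Per the submitters' processing notes, the authors ran Transcriptome Analysis Console. Version, summarization, normalization and build are not given in the sources used here. Values as deposited, 1 per feature and array, were read as log2 expression from their range (0.41 to 13.84), and array medians that differ by line show that lines were not brought to 1 scale. Symbols came from GEO's platform annotation, updated through a RefSeq table of GRCh38.p14. Promoter windows are RefSeq's.

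Testing took the 29855 features (12003 named) that averaged above the features' median in 1 or more of the 6 groups. The model, a mean per group over 18 arrays, was run with limma 3.58.1 in R 4.3.3 (12 residual and 4.33 prior degrees of freedom, intensity trend). P-values were two-sided, with Benjamini-Hochberg adjustment over all features and a threshold of 0.05. The procedure was tested on simulated data.

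CMTM3 and the gene lists were chosen with earlier results of these data known. Named genes were the CMTM family, up to 4 members of each other list with the smallest p in a line, and those with the 5 highest and 3 lowest r. A gene with several features was read from the one with the highest mean. Alternatives were other filters, quantile normalization, a fit per line, no trend, a replicate block and leaving out each array. The number of arrays limits the precision. Same-numbered arrays of a line did not deviate together (r -0.12 to 0.10), so replicate numbers were not taken as pairs.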

Additional observations from a re-analysis of the deposited data

How the results depend on the processing

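The CMTM3 differences after the anti-AL078604.2 ASO kept their direction and moved by less than the spread between replicates under quantile normalization and leaving out each array. A fit per line and the replicate block were also run, but with 3 against 3 arrays they cannot change a difference of group means. In SKBR3, leaving out 1 array gave -0.13 to 0.033, the sign turning without control replicate 2 (0.033), with limma adjusted p of 0.797 or more. The 51 features called in MDA-MB-231 became 28 with no filter, 26 with no intensity trend and 3 in a fit on that line alone, and 0 to 532 when 1 array was left out. The 2 called in MDA-MB-468, CMTM3 among them, became 0 on that line alone and 0 to 12 with 1 array left out. The 0 in SKBR3 became 1 with no filter and 0 to 231 with 1 array left out. The 1 list member called in MDA-MB-231, EPS15L1, became 0 with no filter, no trend or that line alone, and 0 to 1 when 1 array was left out. With replicate number as a block, 0 features and 0 list members were called in MDA-MB-231 and 0 features in MDA-MB-468, so CMTM3 was not called in either line. The block leaves 6 fewer degrees of freedom. The CMTM3 differences of 0.66, 0.76 and -0.06 are the same under the block because the groups are balanced. The cause of the CMTM3 differences, and of the calls lost or gained under these alternatives, was not tested. The limits are 3 arrays per group, 1 feature for CMTM3 and a control level in MDA-MB-468 near the median of all features.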
